A study of Mus musculus with 6 samples.

Results

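In endothelial cells sorted from mouse bone marrow, the RING gene Rnf7 lay 0.96 higher on the log2 scale in diabetic than in nondiabetic mice, while the 8 cullin genes differed by no more than 0.15 either way. Among the kelch-like genes, Klhl20 and Klhl26 stood higher and Klhl8 and Klhl28 lower in diabetic cells, by 0.47 to 0.68, and most others by less than 0.25. These genes encode parts of the cullin-RING ubiquitin ligases. They were taken as every gene whose symbol is Klhl or Cul with a number, plus Rbx1 and Rnf7, that had a probe set naming it alone on the array. That gave 46 of 22180 measured genes, of which 37 were kelch-like, 8 were cullins and 1, Rnf7, was a RING gene. A gene with several such probe sets took the brightest by the mean over all 6 arrays. The family was chosen on the differences of some of its genes between the diabetic and nondiabetic arrays, and the probe sets were chosen by their brightness on the same arrays, so member differences are given as descriptions. From the fit over all genes, SEs are given for tested members, and the widest interval ends for the cullins. These describe the precision of the differences and are not read as tests of members picked on the same arrays. Counts of members from that fit are given beside the same share over all genes, and nothing is read from these counts.

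Male C57BL/6J mice were used in both groups, with 3 arrays of mice made diabetic by a high fat diet and 3 arrays of nondiabetic mice. Each sample was 5000 bone marrow endothelial cells obtained by flow sorting, whose total RNA was amplified and hybridised to a microarray. All 6 labels carry one diet text, 60 kcal% fat for 4 months, so what the nondiabetic mice ate is not settled. The age of the mice is not given in the sources used here, nor whether each array stands for a mouse of its own, so the spread between arrays may be technical.

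Cullin-RING ligases attach ubiquitin to proteins and so mark many of them for destruction by the proteasome. A cullin is the scaffold: one end holds a RING protein, Rbx1 or Rnf7, which recruits the ubiquitin-carrying enzyme, and the other end holds an adaptor with the substrate. Kelch-like proteins are among the adaptors of cullin 3, to which they bind through a BTB domain while their kelch repeats hold the substrate. Attachment of the small protein Nedd8 switches a cullin on, the COP9 signalosome removes it, and Cand1 exchanges the adaptors. In endothelium these ligases are known for control of the hypoxia factors by cullin 2 with the von Hippel-Lindau protein, and of the antioxidant factor NRF2 by cullin 3 with Keap1.

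Promoter letters are shown for the 3 members with the largest differences that had a promoter entry and stayed above the limit for dim genes in both groups. Rnf7 and Klhl20 stood higher and Klhl28 lower in diabetic cells. The sequences are from RefSeq, build GRCm38.p6, on the strand of the gene, and end where the outermost annotated transcript begins. Capitals mark matches to any of 7 motifs searched on both strands. These were the CCAAT box, the GC box spelled GGGCGG, the E-box spelled CACGTG, the cAMP response element spelled TGACGTCA, an ETS core spelled CCGGAAGT, the antioxidant response element spelled TGACNNNGC and the TATA box spelled TATAAA.
Rnf7, chr9:96478676-96478925, minus strand: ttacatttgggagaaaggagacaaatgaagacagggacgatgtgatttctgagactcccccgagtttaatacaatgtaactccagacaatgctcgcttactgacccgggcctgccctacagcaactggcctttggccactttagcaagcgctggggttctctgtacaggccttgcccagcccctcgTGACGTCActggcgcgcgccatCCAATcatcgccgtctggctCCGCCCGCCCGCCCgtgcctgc
Klhl20, chr1:161131509-161131729, minus strand: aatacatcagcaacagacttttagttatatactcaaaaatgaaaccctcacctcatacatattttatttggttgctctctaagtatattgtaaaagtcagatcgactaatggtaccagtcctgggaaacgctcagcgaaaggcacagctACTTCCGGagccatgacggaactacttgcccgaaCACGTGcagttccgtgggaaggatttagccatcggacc
Klhl28, chr12:64965582-64965786, minus strand: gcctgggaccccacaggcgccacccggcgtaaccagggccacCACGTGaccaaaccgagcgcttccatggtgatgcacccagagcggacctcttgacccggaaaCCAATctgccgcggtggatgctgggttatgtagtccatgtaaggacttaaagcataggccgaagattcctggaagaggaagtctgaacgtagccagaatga
The Rnf7 stretch held 1 cAMP response element, 1 CCAAT box and 3 GC boxes, the last of which overlap one another. That of Klhl20 held 1 ETS core and 1 E-box, and that of Klhl28 held 1 E-box and 1 CCAAT box. Among 32851 promoter windows of the 250 bases before a start, the cAMP response element was present in 1.55%, the ETS core in 2.88%, the E-box in 6.02%, the GC box in 32.7% and the CCAAT box in 33.8%. No motif was shared by all 3 genes. An antioxidant response element, present in 10.2% of all windows, lay in the part of the Klhl28 window nearest the start that is not printed, and a GC box lay in the 29 unprinted bases of the Klhl20 window. These matches describe letters only.

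Windows were found for 39 of the 46 genes. The observed over expected CpG ratio had a median of 0.73 over 30 windows of genes above the dim limit and of 0.39 over 21 windows of dim members. Over all array genes the same medians were 0.68 and 0.27, so bright and dim members parted much as bright and dim genes did in general. Several genes have more than 1 window, and such windows can overlap, as those of Klhl26 do.

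The expression values are log2 values made by the authors with RMA, which sets all arrays to a common distribution. A gene was called dim when its mean over the 6 arrays lay under the 40th percentile of all genes, a log2 value of 5.07. The other 13308 genes were tested with limma. Probe sets differ in how brightly they report the same amount of RNA, so levels are compared between arrays for one gene and not between genes. The medians of the arrays lay between 5.21 and 5.28. All 12 pan-endothelial markers measured were above the dim limit, and their mean was 8.88 to 9.58 in diabetic and 9.002 to 9.37 in nondiabetic arrays. Diabetic replicate 1 stood apart, with 9.58 where the other diabetic arrays had 8.88 and 8.94. The neutrophil list, with 5 of 8 measured genes above the limit, had means of 6.21 to 6.34 in diabetic and 5.79 to 6.20 in nondiabetic arrays, with no overlap. The monocyte and macrophage list, with 7 of 8 above the limit, had means of 7.45 to 7.69 and 7.05 to 7.43, again with no overlap. Both lists were barely apart: the nearest arrays had 6.214 and 6.197 for neutrophils and 7.447 and 7.430 for monocytes. Camp and Ltf, both under the dim limit, and Fcgr3, above it, were lower in diabetic cells, by -0.36, -0.12 and -0.23. The other measured genes of both lists were higher, and of these Ly6g and Adgre1 were under the limit. S100a8 had an SD of 2.05 in the nondiabetic arrays. The B lymphoid, erythroid, megakaryocyte, T and NK, stromal and skeletal muscle lists overlapped between the groups. Of these the megakaryocyte and platelet list was bright, with means of 9.32 to 10.0 in diabetic and 9.02 to 9.99 in nondiabetic arrays. In sorted cells analysed in bulk, fewer cells of a type and less RNA per cell cannot be told apart.

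Rnf7 encodes the RING subunit that pairs mainly with cullin 5. Its probe set, 17529807, read 7.12, 6.69 and 6.89 in diabetic replicates 1 to 3 and 5.81, 5.69 and 6.31 in nondiabetic replicates 1 to 3. Every diabetic array lay above every nondiabetic array, with 0.38 between the nearest of them. The means were 6.90 ± 0.21 and 5.94 ± 0.33 (SD, n = 3 each). The difference of 0.96 had an SE of 0.21 and amounts to 1.95-fold. Both groups stayed above the dim limit, and nondiabetic replicate 3 was the control array nearest to the diabetic ones. The neutrophil and monocyte marker means were also higher in each diabetic array, though the nearest arrays were barely apart. Their part in the Rnf7 difference was not tested.

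Rbx1, the RING subunit that pairs with the other cullins of this family, had no probe set of its own. A single probe set names it together with its pseudogene copy Rbx1-ps, so its signal cannot be assigned to either and it is not counted among the 46 genes. It read 10.09, 9.55 and 9.45 in diabetic and 9.35, 9.89 and 9.44 in nondiabetic replicates 1 to 3, and the groups overlapped, with a difference of 0.14.

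**Figure D1:**
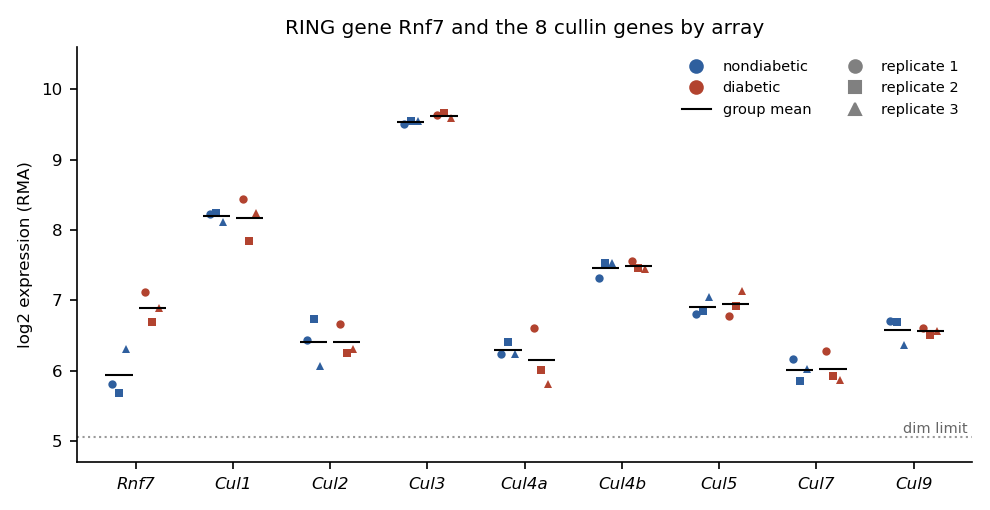
Log2 expression of Rnf7 and the 8 cullin genes (y axis) on each array, with nondiabetic arrays in blue, diabetic arrays in red, marker shape for the replicate number and a black line for the group mean; the dotted line is the dim limit of 5.07. The Rnf7 groups lie apart, at 6.69 to 7.12 against 5.69 to 6.31, and the cullin means of the groups lie close together.

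All 8 cullin genes were above the dim limit. Their differences ran from -0.15 to 0.09 with a median of 0.0022. The median was 0.019 over all tested genes and -0.0038 over all measured genes. Cul3, the scaffold that kelch-like proteins bind, read 9.64, 9.66 and 9.58 in diabetic and 9.51, 9.55 and 9.55 in nondiabetic replicates 1 to 3. Its groups did not overlap, but the nearest arrays were only 0.03 apart and the difference was 0.09 (SE 0.14), in a gene whose within-group SD of 0.03 was small. The groups overlapped when the arrays were centred on their medians or quantile normalised again.

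Cul5, the partner of Rnf7, read 6.79, 6.93 and 7.14 in diabetic and 6.81, 6.84 and 7.06 in nondiabetic replicates. The difference of 0.05 (SE 0.16) was less than the spread between arrays. Its second, dimmer probe set differed by 0.11. Cul5 thus showed overlapping groups by both probe sets, on the same arrays where the Rnf7 groups lay apart.

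Cul1, the scaffold of the SCF ligases with F-box proteins, read 8.44, 7.85 and 8.25 in diabetic and 8.23, 8.24 and 8.12 in nondiabetic replicates. Cul2, the scaffold of the von Hippel-Lindau ligase, read 6.66, 6.25 and 6.32 in diabetic and 6.44, 6.74 and 6.06 in nondiabetic replicates. Both had overlapping groups, with differences of -0.02 (SE 0.19) and -0.0085 (SE 0.21).

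Cul4a, a scaffold that works with the DNA-damage protein Ddb1, read 6.62, 6.02 and 5.82 in diabetic and 6.25, 6.42 and 6.24 in nondiabetic replicates, a difference of -0.15 (SE 0.22). The high diabetic value was that of replicate 1, the array that also stood apart in endothelial markers, and without it the difference was -0.38 and the groups no longer overlapped. Other members also came apart when a single array was left out, among them Cul1 and Klhl18 without diabetic replicate 2. Cul4b, the paralog of Cul4a, read 7.56, 7.46 and 7.45 against 7.31, 7.53 and 7.53, a difference of 0.03 (SE 0.15).

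Cul7, which works with the F-box protein Fbxw8, read 6.29, 5.93 and 5.88 in diabetic and 6.17, 5.85 and 6.03 in nondiabetic replicates, a difference of 0.01 (SE 0.18). Cul9, a large cytoplasmic cullin that binds p53, read 6.61, 6.51 and 6.56 against 6.70, 6.70 and 6.36, a difference of -0.02 (SE 0.16). The groups of both genes overlapped. The 95% intervals of the 8 cullin differences reached at the widest -0.66 for Cul4a and 0.48 for Cul2, so changes of that size were not resolved by 3 arrays a group.

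The 37 kelch-like genes went both ways, with values higher for 17 and lower for 20 in diabetic cells and a median difference of -0.015. Of these, 21 were above the dim limit. The groups did not overlap for 2 of the tested kelch-like genes in the higher direction, Klhl20 and Klhl26, and for 3 in the lower direction, Klhl8, Klhl9 and Klhl28. With Rnf7 and Cul3, 4 of 30 tested genes of the whole family lay higher without overlap and 3 lower. Over all 13308 tested genes these shares were 5.28% and 2.67%, together 7.95%. The family was put forward for such genes, so nothing is read from its own share.

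Klhl20, an adaptor through which cullin 3 acts on death-associated protein kinase, read 7.50, 7.15 and 7.40 in diabetic and 6.50, 7.005 and 6.91 in nondiabetic replicates (probe set 17228825). The nearest arrays were 0.14 apart. The means of 7.35 ± 0.18 and 6.81 ± 0.27 (SD, n = 3 each) differed by 0.54 (SE 0.19), or 1.46-fold. Without nondiabetic replicate 1, the lowest array, the difference was 0.39.

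Klhl26, whose substrates are little known, read 6.52, 6.63 and 6.70 in diabetic and 6.21, 6.12 and 6.12 in nondiabetic replicates (probe set 17510057). The arrays of each group lay close together, with 0.30 between the groups. The means of 6.62 ± 0.09 and 6.15 ± 0.05 (SD, n = 3 each) differed by 0.47 (SE 0.14), or 1.38-fold.

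Klhl28, another kelch-like gene of little known function, read 5.86, 5.67 and 5.94 in diabetic and 6.66, 6.55 and 6.23 in nondiabetic replicates (probe set 17281412). All diabetic arrays lay under all nondiabetic arrays, by at least 0.29. The means were 5.82 ± 0.14 and 6.48 ± 0.23 (SD, n = 3 each). The difference was -0.66 (SE 0.17).

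Klhl8 read 4.87, 4.84 and 4.69 in diabetic and 5.46, 5.34 and 5.64 in nondiabetic replicates (probe set 17450338). The difference was -0.68 (SE 0.15), with means of 4.80 ± 0.10 and 5.48 ± 0.15 (SD, n = 3 each) and 0.47 between the nearest arrays. All 3 diabetic arrays lay under the dim limit of 5.07, a range in which the signal can be background, and the size of this difference is uncertain. Its mean of 5.14 was just above the limit, beside 5.13 for Klhl25, while Klhl3 and Klhl17 lay just under it, at 5.0003 and 4.999.

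Klhl9, which directs Aurora B during cell division, read 8.22, 8.03 and 8.20 in diabetic and 8.55, 8.24 and 8.44 in nondiabetic replicates (probe set 17427108). The nearest arrays were only 0.02 apart and the difference was -0.26 (SE 0.16). The groups overlapped after median centring and after quantile normalisation again, as they did for Cul3. Klhl20, Klhl26, Klhl28, Klhl8 and Rnf7 stayed apart under both.

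**Figure D2:**
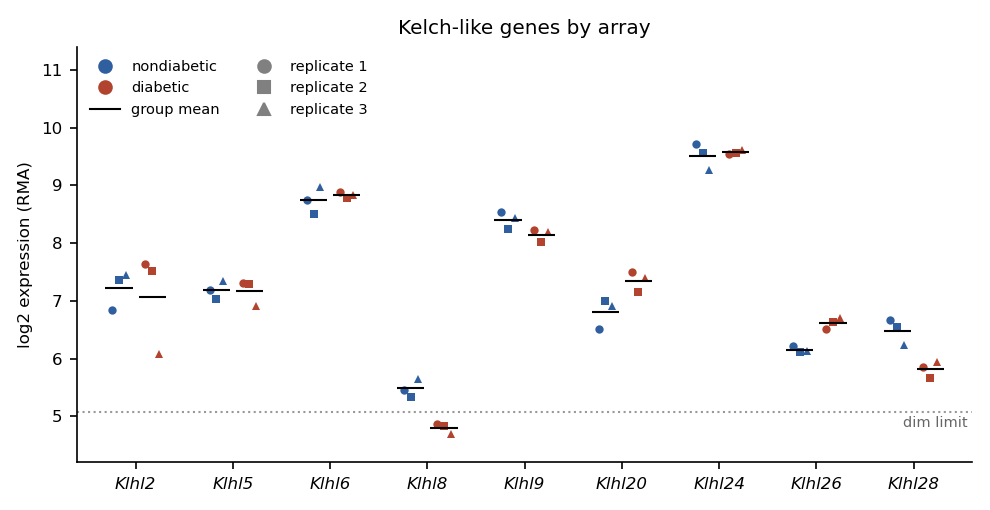
Log2 expression (y axis) of the kelch-like genes whose groups do not overlap and of the brightest others, on each array, with nondiabetic arrays in blue, diabetic in red and a black line for the group mean. Klhl20 and Klhl26 lie higher and Klhl8, Klhl9 and Klhl28 lower in diabetic arrays, the diabetic Klhl8 values fall under the dotted dim limit of 5.07, and Klhl2 has 1 low diabetic array at 6.07.

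In the limma fit over all genes 0 of the 30 tested members had an adjusted p under 0.05 and 5 had an unadjusted p under 0.05. Over all tested genes 1, Rabggtb, or 0.00751%, passed the adjusted test and 4.25% reached the unadjusted level. The neutrophil and monocyte marker means of the 2 groups also did not overlap in these arrays, though only barely, and their part in the member differences was not tested.

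The other bright kelch-like genes showed overlapping groups. Klhl24, known for controlling keratin 14, read 9.55, 9.57 and 9.61 in diabetic and 9.72, 9.56 and 9.27 in nondiabetic replicates, with a difference of 0.06 (SE 0.17). Klhl6, known for its part in B lymphocytes, read 8.89, 8.78 and 8.83 against 8.75, 8.51 and 8.97, with a difference of 0.09 (SE 0.17). Klhl6 and Klhl14 form the lymphoid pair, and Klhl14 was dim, at 4.22 ± 0.09 against 4.23 ± 0.15 (SD, n = 3 each). The B lymphoid and plasma cell markers, 7 of 9 above the limit, had means of 6.18 to 6.64 in diabetic and 6.13 to 6.33 in nondiabetic arrays. Among those above it, Jchain stood at 10.39 ± 0.53 in diabetic and 10.15 ± 0.41 in nondiabetic cells. Ebf1 stood at 8.14 ± 0.15 against 8.37 ± 0.29 (SD, n = 3 each). Of the others above the limit, Cd79a, Mzb1 and Cd79b were higher in diabetic cells, by 0.94, 0.51 and 0.46. The SD of Cd79a in the diabetic arrays was 1.11. Pax5 and Igll1 differed by -0.05 and -0.18. The B cell marker Ms4a1 and the precursor gene Vpreb1 were under the limit.

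Klhl5 read 7.31, 7.29 and 6.91 in diabetic and 7.18, 7.03 and 7.35 in nondiabetic replicates, with overlap and a difference of -0.02 (SE 0.18). Klhl2, an adaptor for the WNK kinases that govern salt transport, read 7.64, 7.51 and 6.07 against 6.85, 7.36 and 7.45. Diabetic replicate 3 deviated by -1.33 from the median of the 6 arrays, the farthest of any tested member on any array. The Klhl2 difference was -0.15 (SE 0.40) on all arrays and 0.35 without that array, so its sign rested on it. Klhl3, the other WNK kinase adaptor, was dim, with a difference of 0.05.

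Of the 6 kelch-like genes of cell division, 3 were above the dim limit: Klhl9, given above, Klhl18 and Klhl22. Klhl22, an adaptor for Polo-like kinase 1, differed by -0.04 (SE 0.23), and Klhl18 by 0.19 (SE 0.15), both with overlap. Klhl13, which acts beside Klhl9, Klhl21 and Klhl42 were dim, with differences of 0.12, -0.05 and -0.07.

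Of the 7 genes grouped as adaptors of cytoskeleton, secretion and signaling, 6 were above the limit, among them Klhl20 and Klhl24. Klhl7 differed by 0.37 (SE 0.21), at 6.70, 6.30 and 6.30 in diabetic and 5.70, 6.37 and 6.10 in nondiabetic replicates, with overlap. Its difference was 0.19 without nondiabetic replicate 1, the lowest array. Klhl12, through which cullin 3 enlarges the vesicles that carry collagen, differed by 0.09 (SE 0.15). Klhl15, an adaptor for a phosphatase 2A subunit, and Klhl25 differed by -0.03 and -0.04.

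Of the 4 kelch-like genes of muscle, Klhl31, Klhl40 and Klhl41 were dim and differed by 0.04, -0.11 and 0.05. Klhl38, the other, was above the limit, at 5.56, 5.37 and 5.60 in diabetic and 6.27, 5.49 and 5.53 in nondiabetic replicates. Its difference of -0.25 (SE 0.23) came with 1 high array, nondiabetic replicate 1. Of 8 skeletal muscle markers 3 were above the limit, and their list mean was 4.68 to 4.82 in diabetic and 4.66 to 4.86 in nondiabetic arrays. Klhl1 of brain, just above the limit, and the dim germ line gene Klhl10 both differed by -0.02.

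Of the 14 kelch-like genes with no role assigned here, 8 were above the limit, and 3 of these were Klhl8, Klhl26 and Klhl28. Klhl4 differed by 0.15, Klhl32 by 0.13, Klhl36 by -0.19 and Klhl30 by -0.38, all with overlap. The 16 dim kelch-like genes had mean levels of 3.51 to 5.0003 and differences of -0.17 to 0.20, and in 0 of them did the groups lie apart. Over all 8872 dim genes the groups lay apart in 771, and nothing is read from the count in so few members.

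Cul5, Klhl30, Klhl32 and Klhl38 had 2 probe sets each. For Klhl30 they disagreed: the brighter differed by -0.38 and the dimmer, at 5.38 ± 0.18 against 5.23 ± 0.12 (SD, n = 3 each), by 0.15. For Klhl32 the brighter differed by 0.13 and the dimmer by -0.07, and for Klhl38 the values were -0.25 and -0.03. The members with groups apart had 1 probe set each, so a second reading of them was not available here.

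**Figure D3:**
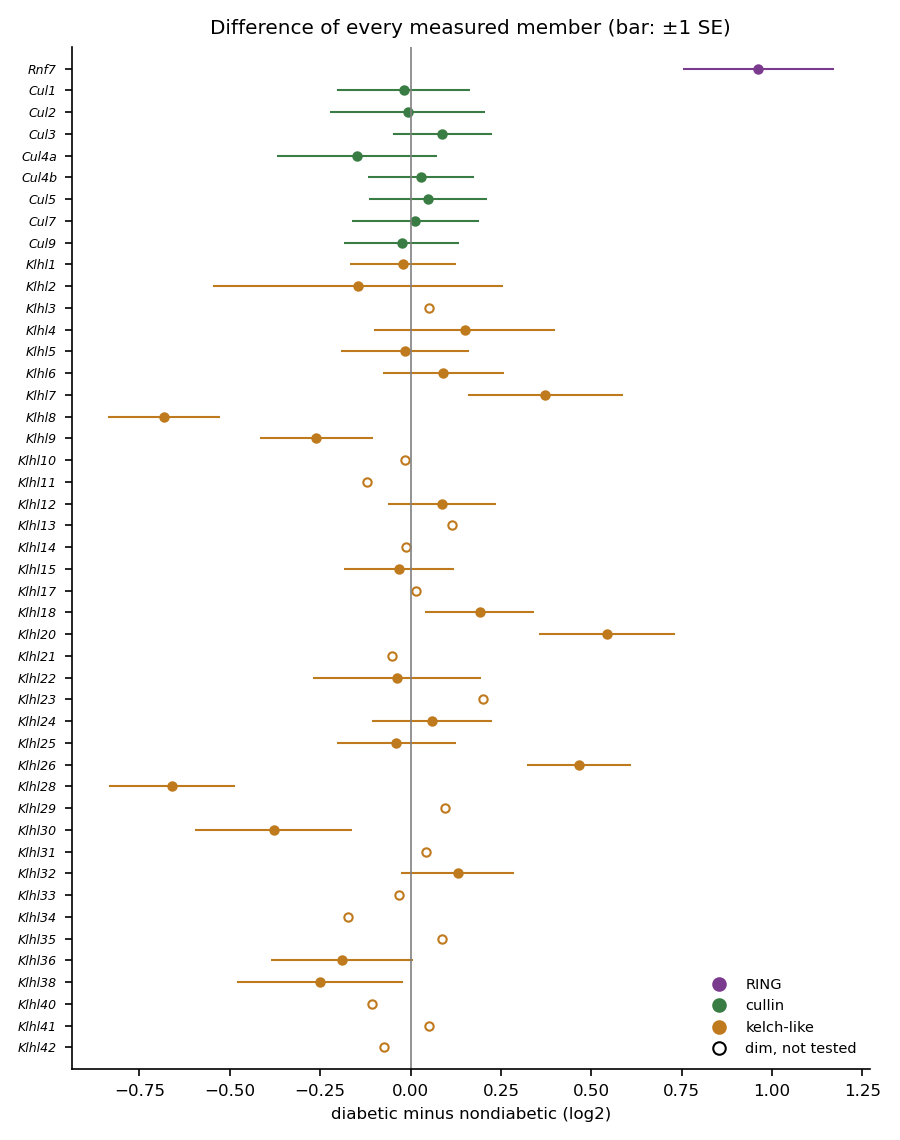
Difference between diabetic and nondiabetic means (x axis, log2) for each of the 46 genes (y axis), with bars of 1 SE for the 30 tested genes and open circles for the 16 dim ones. Rnf7 lies farthest to the right at 0.96, Klhl8 and Klhl28 farthest to the left at -0.68 and -0.66, and the cullins between -0.15 and 0.09.

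With each array left out in turn, Rnf7 differed by 0.84 to 1.15, Klhl20 by 0.39 to 0.64, Klhl26 by 0.42 to 0.52 and Cul3 by 0.07 to 0.11. On the lower side Klhl28 differed by -0.79 to -0.57, Klhl8 by -0.75 to -0.60 and Klhl9 by -0.35 to -0.19. These 7 genes kept their direction in each of 14 other settings, but for most settings this was fixed in advance. Their groups do not overlap, so leaving out or weighting arrays cannot reverse a difference. Only median centring and quantile normalization again could have done so, and neither did. Without diabetic replicate 1, the array that stood apart in endothelial markers, Rnf7 differed by 0.85, Klhl20 by 0.47, Klhl26 by 0.52, Klhl28 by -0.68 and Klhl8 by -0.72. Without nondiabetic replicate 3, Klhl8 fell under the dim limit and was not tested.

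**Figure D4:**
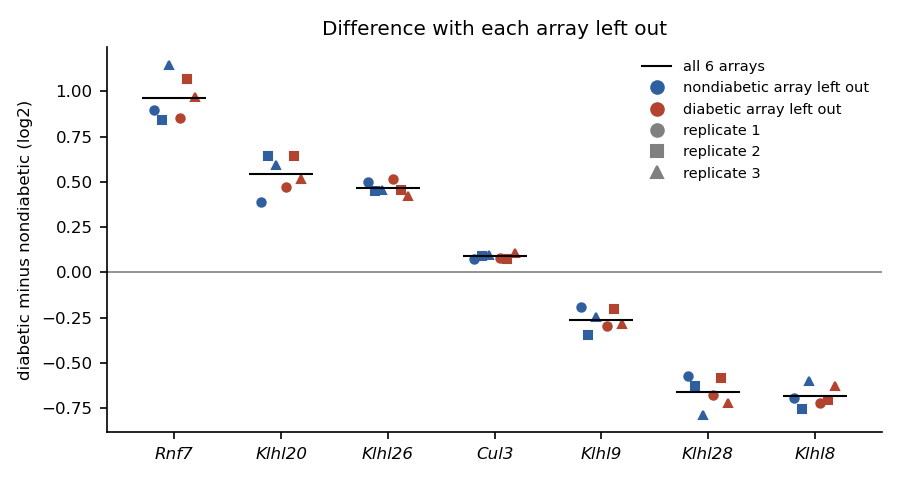
Difference between diabetic and nondiabetic means (y axis, log2) of the 7 genes whose groups do not overlap, with a black line for all 6 arrays and a marker for each array left out, blue for nondiabetic, red for diabetic and shape for the replicate. Since the groups do not overlap, leaving out an array cannot move a marker across 0. The markers of Rnf7 spread from 0.84 to 1.15.

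The other genes of these ligases were taken from 8 lists, of which 84 of 91 genes were measured and 78 tested. In diabetic cells 50 of the 84 stood higher and 34 lower, with a median of 0.05. Over all 13308 tested genes 7185 stood higher and 6123 lower, with a median of 0.019. Over all 22180 measured genes, which include dim ones as the 84 do, 10892 stood higher and 11288 lower, with a median of -0.0038. By limma 0 of the 78 passed the adjusted test. An unadjusted p under 0.05 was reached by 1 higher and 1 lower gene, or 2.56%, against 4.25% of all tested genes. The median of 6 of the 8 lists changed sign with at least 1 array left out, and that of the other two lay near 0 without diabetic replicate 1.

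Among 9 measured neddylation enzymes, which load Nedd8 onto cullins, 4 had higher and 5 lower values, with a median of -0.04. Ube2f, the Nedd8-carrying enzyme that works with Rnf7, read 6.34, 6.29 and 6.11 in diabetic and 6.44, 6.53 and 6.66 in nondiabetic replicates. Its groups did not overlap, in the opposite direction to Rnf7, with a difference of -0.29 (SE 0.15). It did not pass the limma test (adjusted p = 0.997). Dcun1d5, which aids the transfer of Nedd8, differed by 0.28 (SE 0.17), and Nedd8 itself by 0.08 (SE 0.24), both with overlap. Ube2m, the Nedd8-carrying enzyme that works with Rbx1, is not analysed here.

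Of 13 genes that remove Nedd8 or exchange adaptors, 5 had higher and 8 lower values, with a median of -0.015. The COP9 signalosome genes Cops7b, Cops7a and Cops5, the last of which encodes the catalytic subunit, differed by -0.40 (SE 0.27), -0.25 (SE 0.18) and -0.11 (SE 0.17). Their groups overlapped. Of 8 ubiquitin-carrying and ARIH partners, 5 had higher and 3 lower values. Ube2g1, which lengthens ubiquitin chains, read 7.75, 7.78 and 8.16 in diabetic and 8.59, 8.31 and 8.33 in nondiabetic replicates, a difference of -0.52 (SE 0.18) without overlap (limma adjusted p = 0.997). Ube2d2a differed by -0.41 (SE 0.24), with overlap.

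The 5 adaptors of other cullins had a median of 0.016. Eloc and Elob, the elongins that link cullins 2 and 5 to their substrates, differed by -0.45 (SE 0.28) and 0.14 (SE 0.15), with overlap. Among 12 BTB-kelch genes without a Klhl symbol 6 had higher and 6 lower values. Enc1, an actin-binding member of this group, read 7.70, 7.38 and 7.22 in diabetic and 6.98, 7.12 and 6.72 in nondiabetic replicates, a difference of 0.49 (SE 0.19) without overlap (limma adjusted p = 0.997). Kbtbd4 and Ivns1abp differed by 0.30 (SE 0.25) and 0.17 (SE 0.19). Keap1, named here for its role as the NRF2 adaptor and not by the naming rule, read 6.16, 6.28 and 6.53 against 6.23, 6.17 and 6.69, with a difference of -0.04 (SE 0.19).

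Of 12 other BTB adaptors of cullin 3, 8 had higher and 4 lower values, with a median of 0.08. Leaving out replicate 1 turned that median negative, to -0.026 for the diabetic and -0.036 for the nondiabetic array of that number. Kctd10, Kctd9 and Spop differed by -0.26, 0.27 and 0.07, with overlap. Of 23 substrate receptors of other cullins, 18 had higher and 5 lower values, with a median of 0.13. That median rested on single arrays: it was 0.0093 without diabetic replicate 1, 0.060 without nondiabetic replicate 3 and 0.0069 with array weights. Fbxw7, the F-box protein that targets cyclin E and Notch, read 6.23, 5.93 and 5.83 in diabetic and 5.69, 5.62 and 5.56 in nondiabetic replicates, a difference of 0.37 (SE 0.16) without overlap (limma adjusted p = 0.997). Lrr1 and Klhdc2, both receptors of cullin 2, differed by 0.66 (SE 0.39) and 0.04 (SE 0.25). Anapc11 and Anapc2, the RING and cullin-like pair of the anaphase-promoting complex, differed by 0.33 (SE 0.18) and -0.10 (SE 0.19), with overlap.

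**Figure D5:**
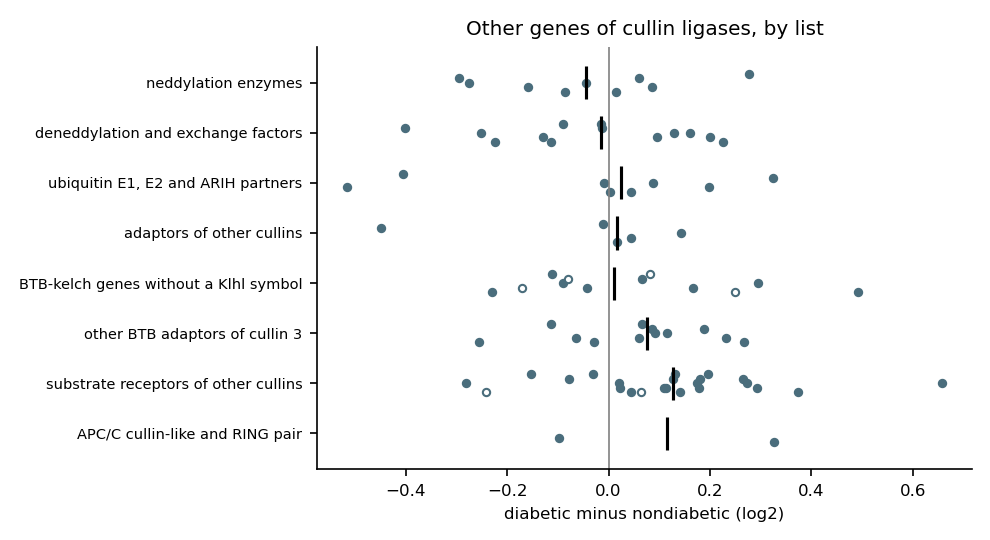
Difference between diabetic and nondiabetic means (x axis, log2) of each measured gene in 8 lists of other cullin ligase genes (y axis), with filled circles for tested and open circles for dim genes and a black line for the list median. The medians run from -0.04 for neddylation enzymes to 0.13 for substrate receptors of other cullins, the latter 0.0093 without diabetic replicate 1.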

How the data were processed

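The deposited values are log2 expression from RMA, run by the authors per the submitters' processing notes; no software or version is named in the sources used here. Genes were named by the platform annotation that came with the table: 23521 of 41345 probe sets named 1 gene, 1814 several and 16010 none. Groups and replicate numbers came from the sample titles. limma 3.58.1 in R 4.3.3 (lmFit, eBayes, no covariates, Benjamini-Hochberg over all 13308 tested genes, threshold 0.05) gave SEs and 95% intervals, which are unadjusted. The number of arrays, 3 a group, limits the precision; the median SE over tested genes was 0.19. The members and lists were chosen with earlier results of these data known. Per-array values were given for Rnf7, every cullin, the 5 brightest kelch-like genes and every tested member whose groups did not overlap; members singled out for an odd array or a second probe set were added after their values were seen. In each list the 2 genes with the smallest p and the brightest were named. On simulated data with 13308 genes, drawn as independent normal values, 100 genes were changed by a log2 value of 1 and 100 by 2. The change of 1 was recovered in 61.0% of changed genes and that of 2 in 100%, and 6.40% of the calls were false. These shares depend on how many genes were changed, so they do not give the power in the real data. A planned comparison of Rnf7 with Rbx1 was not made, since no probe set names Rbx1 alone. Same-numbered arrays did not deviate together: the correlations across genes of their deviations from the group means were -0.036, -0.064 and 0.016. Promoter windows were matched by gene number.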

Additional observations from a re-analysis of the deposited data

How the results depend on the processing

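The number of genes that passed the adjusted limma test was 1 on all arrays and 0 with the filter on dim genes at the 60th percentile, where the gene itself was left out; with each array left out in turn it was 0 to 1, and it was 0 without nondiabetic replicate 3. Of the kelch-like, cullin and RING genes 0 passed in any of the 14 settings. An unadjusted p under 0.05 in limma was reached by 4 to 6 of them, with 20 to 46 of them tested. In the main setting the count was 5 of 30, against 4.25% of all tested genes. The share over all genes in the other settings is not given here, so nothing is read from these counts. The median cullin difference of 0.0022 became -0.062 with array weights, and -0.082 to 0.061 with an array left out, the lowest without diabetic replicate 1. The median kelch-like difference of -0.015 ranged from -0.031 to 0.035. The replicate number as a block left the number of genes passing at 1 and of members at 0; the arrays share only a number, so no pairing is assumed. Of 7 members with groups apart, 6 remained with the filter at the 60th percentile (Klhl8 was dim), 5 after median centring and 5 after quantile normalization again (Cul3 and Klhl9 overlapped). With 1 array left out 8 to 9 tested members lay apart, as 2 arrays in a group overlap less readily than 3. The share over all genes is not given for these settings, and nothing is read from the count. With single arrays left out the medians of 6 lists changed sign: neddylation -0.17 to 0.09, deneddylation -0.12 to 0.06, ubiquitin-carrying and ARIH partners -0.049 to 0.19, adaptors of other cullins -0.052 to 0.090, BTB-kelch -0.11 to 0.15 and other BTB adaptors -0.036 to 0.14. Without diabetic replicate 1 the substrate receptors fell to 0.0093 and the anaphase-promoting pair to 0.0013. The comparison of Rnf7 with Rbx1 was not run. Values near the dim limit are the least certain.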
